A study of Mus musculus with 11 samples.

Results

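Purine receptors and ectonucleotidases are the genes through which microglia sense and clear extracellular nucleotides. A total of 10 genes were taken by symbol from the 39017 Ensembl genes of the deposited count table, and each matched exactly 1 row: the P2Y receptors P2ry12, P2ry13 and P2ry6, the P2X channels P2rx4 and P2rx7, the adenosine receptors Adora3, Adora2a and Adora1, and the enzymes Entpd1 and Nt5e. ATP and ADP that leave damaged or active cells act on P2X and P2Y receptors. Entpd1 (CD39) then removes phosphates down to AMP, Nt5e (CD73) turns AMP into adenosine, and adenosine acts on its own receptors. In the brain and spinal cord P2ry12 is a widely used marker of resting microglia, and P2rx4 in spinal microglia is known for its part in pain after nerve injury.

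RNA bound to tagged ribosomes was compared between 5 spinal cord samples labelled Kdm6a cKO (cKO2, cKO4, cKO5, cKO6 and cKO7) and 6 labelled wildtype (WT8, WT9, WT13, WT15, WT16 and WT17). In both groups the RiboTag allele, a haemagglutinin tag on ribosomal protein Rpl22, was switched on by Tmem119-Cre/ERT2, a Cre that needs tamoxifen and is driven from a gene used as a microglial marker. By its label the cKO carries a deletion of Kdm6a made with this Cre; the gene encodes an H3K27 demethylase on the X chromosome. All samples came from healthy C57BL/6 females; age, tamoxifen schedule, pooling and batch are not given in the labels. The labels do not say whether samples are different animals, and each p-value rests on the scatter of these 11 samples alone. Where values are listed library by library, they follow the library numbers upwards (2, 4, 5, 6, 7 in cKO and 8, 9, 13, 15, 16, 17 in WT). Library totals ran from 28620584 to 40943004 counts, and no pair of libraries of a group agreed within sampling noise (lowest chi-square per gene 17.77, against 1 expected for a library entered as a pair).

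The label and the cell type were checked first. Kdm6a averaged 6.31 ± 1.53 CPM in cKO and 9.59 ± 1.87 CPM in WT (SD, n = 5 and 6), where CPM are counts scaled to library size with TMM factors. The log2 fold change was -0.61 (SE 0.25), the groups overlapped (3.8 to 7.73 CPM in cKO, 7.24 to 12 CPM in WT), and the gene did not pass (edgeR's quasi-likelihood test, adjusted p = 0.193); which exons were deleted is not given, so reads from the rest of the gene count here. Of 12 microglial markers 11 had counts, and Aif1 was at 0 in every library. Their summed level was 45240.2 to 47746 CPM in cKO and 32961 to 42804 CPM in WT, so the groups did not overlap. Of the 11 tested 6 passed as higher in cKO. Over all genes tested 1.86% passed as higher, 2.43% passed as lower and 4.16% did not overlap as single genes. Among the 3563 genes at least as abundant as P2rx4, 10.8% passed in either direction. The neuron list (10 of 10 with counts) summed to 1155 to 1397 CPM in cKO, against 1209 to 2871 CPM in WT. WT13, WT16 and WT17 held the 3 highest neuronal sums, at 2396, 1953 and 2871 CPM. Astrocyte markers (9 of 9) summed to 1548 to 1749 CPM in cKO and 1565 to 2207 CPM in WT, and oligodendrocyte markers (9 of 9) to 4799 to 5496 CPM in cKO and 4679.8 to 6032 CPM in WT. Endothelial markers (9 of 9) summed to 42.1 to 51.2 CPM in cKO and 49.2 to 162 CPM in WT, with 2 of 9 lower, and pericyte markers (6 of 6) to 21.8 to 40.8 CPM in cKO and 26.1 to 126 CPM in WT, with 1 of 6 lower. Border macrophage markers (4 of 6, with Lyve1 and Pf4 at 0) summed to 679.5 to 785 CPM in cKO and 502 to 695 CPM in WT. Nearly all of that sum came from Maf (mean 623 CPM in cKO, 497 CPM in WT) and Stab1 (114 and 100.4 CPM). The sum is therefore mostly the level of Maf, and 0 of 3 tested genes of that list passed in either direction. Monocyte and neutrophil markers summed to at most 1.4 CPM in cKO and 3.25 CPM in WT. What these lists add to the results was not tested except where a value is given. In bulk RNA fewer cells of a type and less RNA per cell cannot be told apart.

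All 10 genes passed the filter on low counts, and 4 passed the threshold (adjusted p under 0.05 over 16025 genes): P2ry12 was higher and P2ry6, P2rx4 and Adora3 were lower in cKO. Over all genes tested 4.29% passed, 1.86% as higher and 2.43% as lower. P2ry6 and Adora3 did not overlap between the groups, as did 4.16% of all genes. Without WT13, WT16 and WT17, 3.21% of all genes passed (0.999% higher, 2.21% lower), and of the 10 genes 0 were higher (1 at an unadjusted p under 0.05, and 1 by DESeq2 on all samples) and 4 lower, P2rx7 being the fourth. Abundant genes passed more often: among the 3563 genes at least as abundant as P2rx4 the share was 10.8%, and 8 of the 10 belong to that group. The median log2 fold change over the 10 genes was -0.035, beside -0.013 over all genes tested, with changes in both directions. Adora2a and Nt5e had under 100 counts in every library, and their intervals were wide.

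**Figure D1:**
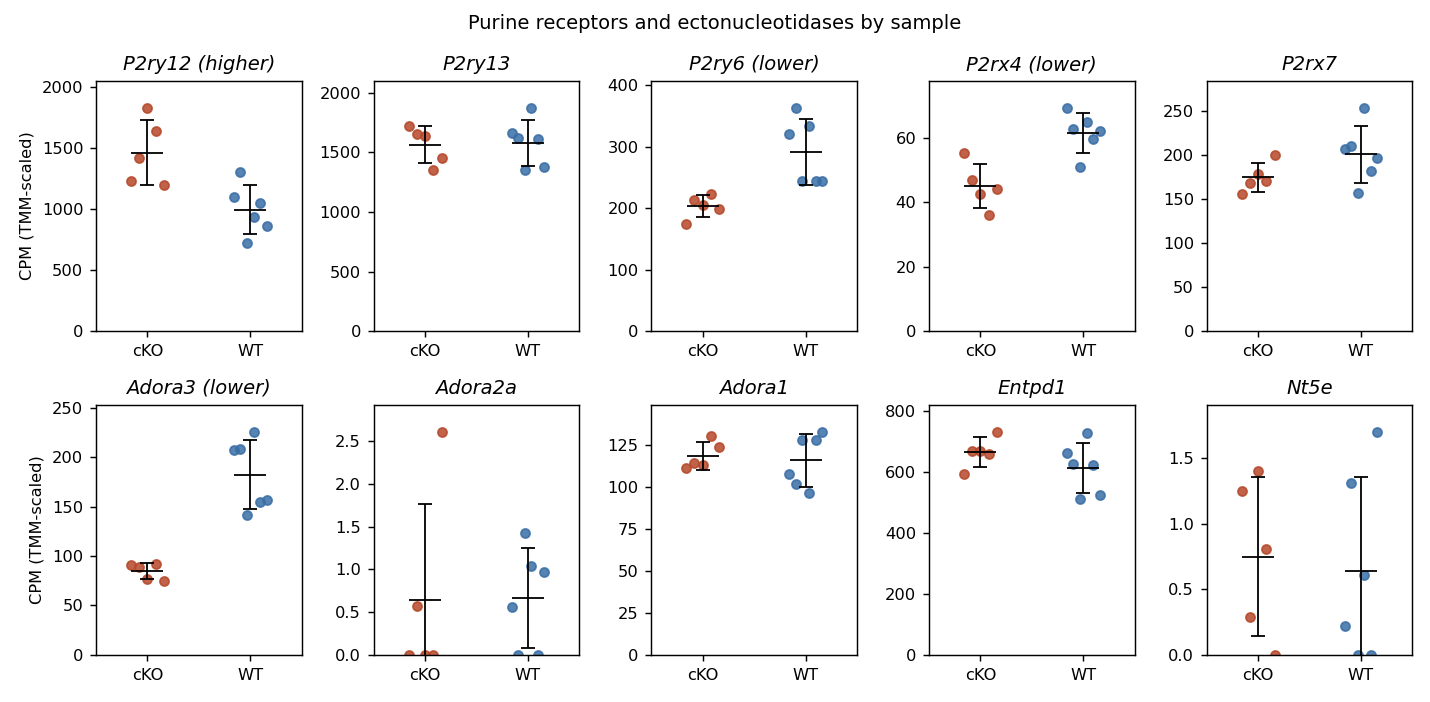
Level of each of the 10 genes in every library, in TMM-scaled CPM on a linear axis from 0; points are libraries, with cKO left of WT, and bars give the mean and SD (n = 5 and 6). Adora3 and P2ry6 do not overlap between the groups, P2ry12 and P2rx4 do, and Adora2a and Nt5e lie under 3 CPM throughout.

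Per kilobase of annotated exon the order in cKO libraries, by mean CPM per kb, was P2ry13 (619), P2ry12 (574), Entpd1 (119), P2ry6 (70.4), P2rx7 (29.3), Adora3 (22.7), Adora1 (20.5), P2rx4 (6.41), Adora2a (0.208) and Nt5e (0.0869). In WT libraries the order was the same except that Adora3 (48.9) stood above P2rx7 (33.7). P2ry13 and P2ry12 overlapped in cKO, at 536 to 682 and 471 to 718 CPM per kb, and stood apart in WT, at 534 to 741 and 283 to 513. Entpd1 and P2ry6 stood apart in cKO, at 107 to 132 and 60.6 to 77.2 CPM per kb, and overlapped in WT, at 92 to 131 and 84.6 to 126. Adora3 overlapped Adora1 in cKO (20 to 24.6 and 19.1 to 22.5 CPM per kb) but not in WT, where Adora3 ran from 38.1 to 60.7 and Adora1 from 16.7 to 23.1.

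P2ry12 (ENSMUSG00000036353, chromosome 3, 59216272 to 59262871, minus strand, mm10) encodes a Gi-coupled ADP receptor that guides microglial processes towards ATP sources. Its level was 1228, 1419.5, 1828, 1638 and 1199 CPM in the cKO libraries, against a lowest value of 721 CPM in WT13, a median of 992 CPM and a highest of 1306 CPM in WT9. WT9 lay above cKO2 and cKO7, so the groups overlapped. P2ry12 averaged 1463 ± 269.8 CPM in cKO and 996 ± 203 CPM in WT (SD, n = 5 and 6), a 1.47-fold higher level in cKO (log2 fold change 0.55 with an SE of 0.14 and a 95% interval of 0.25 to 0.86, edgeR adjusted p = 0.0442). The call was lost in 8 of the 11 fits that left out 1 library, namely without cKO4, cKO5, cKO6, WT8, WT13, WT15, WT16 or WT17 (edgeR adjusted p from 0.0503 to 0.116), and without WT13, WT16 and WT17 together the log2 fold change was 0.39 (edgeR adjusted p = 0.507).

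P2ry12, which is not on the marker list, was higher alongside the microglial markers, whose median log2 fold change was 0.30. Set against the summed counts of the 12 microglial markers in the same library, a scale chosen after the data were seen, the difference was 0.26 on the log2 scale, beside a median of -0.30 over the 13623 genes with counts in every library. The groups overlapped on that scale, and the 0.26 did not pass against no difference (exact permutation test, two-sided, adjusted p = 0.143 over 8 genes). What the higher microglial marker level contributed to the P2ry12 value was not tested beyond that.

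P2ry13 (ENSMUSG00000036362, chromosome 3, 59207892 to 59210882, minus strand), a second Gi-coupled ADP receptor and the neighbour of P2ry12, did not pass. It had 1724, 1650.5, 1640.1, 1355 and 1450 CPM in the cKO libraries, against 1351 (WT13), 1614 and 1874 CPM (WT15) as lowest, median and highest in WT. The groups overlapped over nearly their whole range. Its log2 fold change stood at -0.02 with an SE of 0.09 and an interval from -0.20 to 0.16 (edgeR adjusted p = 0.957), and that interval leaves out the value of 0.55 found for P2ry12. Against the summed microglial markers P2ry13 differed by -0.31, beside -0.30 for the median gene; every cKO library lay below every WT library there, as for 11.4% of genes on that scale.

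Both genes lie inside Med12l, a Mediator kinase-module gene on the opposite strand. In the annotation P2ry12 shares 9 exon bases with it and P2ry13 shares 0, and the strand setting of the counting is not given. Med12l itself was at 20.2 ± 5.88 CPM in cKO and 23.2 ± 6.32 CPM in WT, with a log2 fold change of -0.20 (SE 0.21; edgeR adjusted p = 0.707). P2ry14, a receptor for UDP-sugars in the same stretch, had 0.755 ± 0.924 CPM in cKO and 1.19 ± 1.08 CPM in WT, and Gpr171 had 0.343 ± 0.426 CPM in cKO and 0.271 ± 0.508 CPM in WT.

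**Figure D2:**
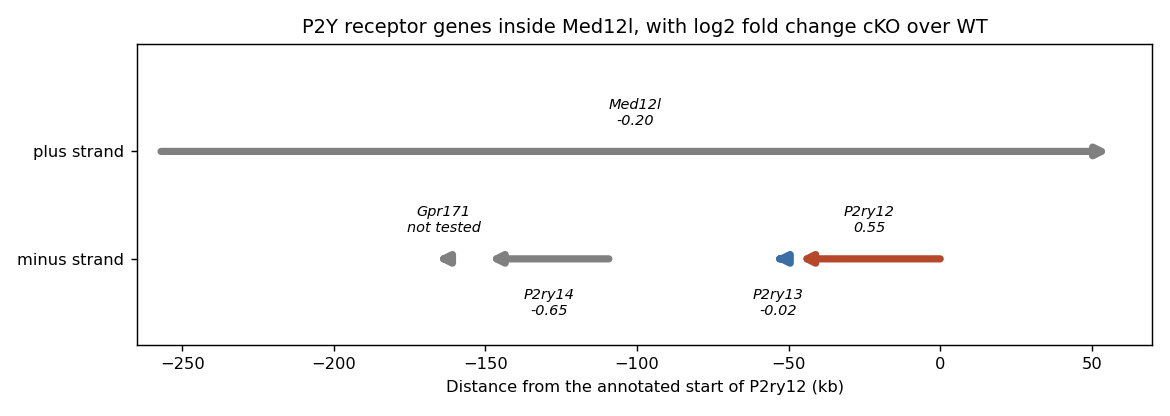
Med12l and 4 genes inside it on chromosome 3, placed by distance in kb from the annotated start of P2ry12; arrows point in the direction of transcription and numbers are log2 fold changes, cKO over WT. P2ry12 (0.55) is past the threshold, while P2ry13 (-0.02), Med12l (-0.20) and the sparsely counted P2ry14 (-0.65, edgeR adjusted p = 0.854) are not.

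The ratio of P2ry12 to P2ry13 counts within a library needs no scaling between libraries. On the log2 scale it was -0.49, -0.22, 0.16, 0.27 and -0.27 in the cKO libraries, against -0.59, -0.31, -0.91, -1.01, -0.62 and -0.68 in the WT libraries. Of the WT libraries only WT9 reached into the cKO range, where it lay above cKO2. The means were -0.11 ± 0.32 in cKO and -0.68 ± 0.25 in WT, a difference of 0.57 (exact permutation test over all label assignments, two-sided, p = 0.00866, adjusted 0.0173 over 4 pairs). P2ry13 itself was at -0.02, so this difference mostly restates that of P2ry12. The pair was chosen with earlier results of these data known, so the p-value adds no separate support. Without WT13, WT16 and WT17 the difference was 0.53 (adjusted exact permutation p = 0.179), where, with 5 libraries against 3, even the fully separated pair P2ry6 and P2ry12 reached only 0.0714. The 250 bases before the RefSeq start of each gene (GRCm38.p6, read 5′ to 3′ on the gene's strand) are printed here. They were chosen because P2ry12 passed in the main fit and P2ry13 did not. Capitals mark GAGGAAG, a letter run found in sites of the myeloid factor PU.1, or TGANTCA, a run found in AP-1 sites, searched on both strands.
P2ry12: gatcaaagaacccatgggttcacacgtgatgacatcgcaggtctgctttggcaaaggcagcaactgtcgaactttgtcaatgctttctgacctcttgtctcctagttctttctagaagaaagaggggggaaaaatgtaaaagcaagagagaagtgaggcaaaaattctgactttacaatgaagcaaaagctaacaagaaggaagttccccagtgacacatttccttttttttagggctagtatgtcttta
P2ry13: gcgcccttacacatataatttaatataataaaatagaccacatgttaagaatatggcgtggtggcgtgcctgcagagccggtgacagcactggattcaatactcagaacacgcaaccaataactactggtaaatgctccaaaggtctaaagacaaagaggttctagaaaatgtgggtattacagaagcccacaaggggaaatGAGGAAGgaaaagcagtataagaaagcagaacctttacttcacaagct
These windows lie at chr3:59262986-59263235 and chr3:59210883-59211132. GAGGAAG stands once before P2ry13, its first base at -48, and neither run stands in the P2ry12 window. Of 32817 RefSeq promoter windows of the same length 10.6% hold GAGGAAG and 6.75% hold TGANTCA. The P2ry12 window has 3 CpG and the P2ry13 window 5, where the median over all windows is 6.

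P2ry6 (ENSMUSG00000048779, chromosome 7, 100937630 to 100974649, minus strand) encodes the Gq-coupled receptor for UDP, which is known to trigger uptake by microglia. It had 175, 214, 205, 223 and 199 CPM in the cKO libraries, against 244 (WT13, WT16 and WT17), a median of 282 and 363 CPM (WT9) in WT. Every cKO library lay below every WT library, an arrangement found for 1.99% of all genes tested. The means were 203 ± 18.2 CPM in cKO and 292 ± 53.6 CPM in WT (SD, n = 5 and 6), or 69.7% of the WT level (log2 fold change -0.52, SE 0.11, 95% interval -0.75 to -0.30; edgeR adjusted p = 0.00598). P2ry6 passed in each of the 18 other fits across all genes, with log2 fold changes from -0.74 to -0.45. WT13, WT16 and WT17 were also the WT libraries with the lowest P2ry6, and without them it was at -0.74. Against the summed microglial markers it was at -0.81, beside -0.30 for the median gene, with no overlap, as for 11.4% of genes on that scale.

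The ratio of P2ry6, which fell, to P2ry12, which was higher, is given as a description, since the pair was chosen with both fold changes known and P2ry6 alone did not overlap. The log2 ratio of P2ry6 to P2ry12 counts ran from -3.16 (cKO5) to -2.59 (cKO7) in cKO and from -2.10 (WT16) to -1.48 (WT15) in WT. The means were -2.83 ± 0.21 in cKO and -1.77 ± 0.22 in WT, a difference of -1.07.

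**Figure D3:**
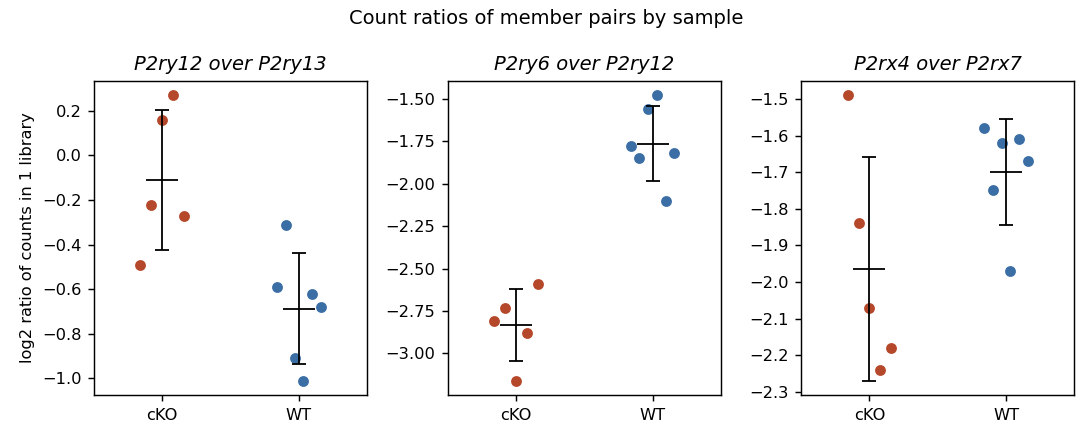
Log2 ratios of counts within each library for 3 pairs, with cKO left of WT; points are libraries and bars the mean and SD (n = 5 and 6), and the vertical axes do not start at 0. P2ry6 over P2ry12 does not overlap between the groups (-3.16 to -2.59 in cKO, -2.10 to -1.48 in WT), while P2ry12 over P2ry13 and P2rx4 over P2rx7 do.

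Of the P2X channels, P2rx4 fell. P2rx4 (ENSMUSG00000029470, chromosome 5, 122707544 to 122729738, plus strand) is an ATP-gated cation channel. It had 55.3, 47, 42.6, 36.2 and 44.2 CPM in the cKO libraries, against 51 (WT13), 62.3 and 69.3 CPM (WT8) as lowest, median and highest in WT. Only cKO2 and WT13 crossed. The means were 45.1 ± 6.97 CPM in cKO and 61.6 ± 6.16 CPM in WT, or 73.2% of the WT level (log2 fold change -0.45, SE 0.12, 95% interval -0.69 to -0.21; edgeR adjusted p = 0.0283). The call was lost in 7 of 11 fits that left out 1 library, namely without cKO4, cKO5, cKO6, cKO7, WT8, WT9 or WT16 (edgeR adjusted p from 0.0519 to 0.0953), and it held when WT13, WT16 and WT17 were left out together (-0.55, edgeR adjusted p = 0.0128).

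P2rx7 (ENSMUSG00000029468, chromosome 5, 122643911 to 122691432, plus strand), the ATP-gated channel that needs high ATP and is linked to inflammasome activation, lies next to P2rx4. It had 156, 168, 179, 171 and 200 CPM in the cKO libraries, against 157 (WT13), 202 and 254 CPM (WT15) in WT, and the groups overlapped. The log2 fold change of -0.21, with an SE of 0.10 and an interval of -0.42 to 0.01, did not pass (edgeR adjusted p = 0.29), and without WT13, WT16 and WT17 it was -0.36 and passed (edgeR adjusted p = 0.0174). The log2 ratio of P2rx4 to P2rx7 was -1.96 ± 0.30 in cKO and -1.70 ± 0.14 in WT, a difference of -0.26 that did not pass (exact permutation p = 0.0931, adjusted 0.124). Against the summed microglial markers P2rx4 was at -0.76 and P2rx7 at -0.49, beside -0.30 for the median gene. Neither overlapped between the groups on that scale, where 11.4% of genes had every cKO library below every WT library. The ratio of P2rx4 to P2rx7 passed without cKO2, at -0.38 (adjusted exact permutation p = 0.019). The microRNA gene Mir8115 lies in the P2rx7 locus and shares 119 exon bases with it, so counts can be shared there.

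Adora3 carried the largest change among the 10 genes. Adora3 (ENSMUSG00000000562, chromosome 3, 105870858 to 105908926, plus strand) encodes the Gi-coupled A3 adenosine receptor. It had 90.5, 89, 77.1, 91.7 and 74.5 CPM in the cKO libraries, against 142 (WT13), 182 and 226 CPM (WT15) as lowest, median and highest in WT. Every cKO library lay below every WT library, with a wide gap. The means were 84.6 ± 8.1 CPM in cKO and 182 ± 35.3 CPM in WT (SD, n = 5 and 6), a 2.16-fold lower level in cKO (log2 fold change -1.11, SE 0.12, 95% interval -1.35 to -0.87; edgeR adjusted p = 2.22e-06). It passed in each of the 18 other fits, with values from -1.34 to -1.04. WT13, WT16 and WT17 were lowest among WT here too (142, 155 and 157 CPM), and without them the value was -1.34. Against the summed microglial markers Adora3 was at -1.39, beside -0.30 for the median gene. Adora3 shares 779 exon bases with Tmigd3 on the same strand, which had 0.0779 ± 0.113 CPM in cKO and 0.134 ± 0.195 CPM in WT.

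The upstream windows of Adora3 and P2rx4, which both fell, are printed with the same marks; the promoter table holds 8 of the 10 genes, P2ry6 and Adora2a not among them.
Adora3: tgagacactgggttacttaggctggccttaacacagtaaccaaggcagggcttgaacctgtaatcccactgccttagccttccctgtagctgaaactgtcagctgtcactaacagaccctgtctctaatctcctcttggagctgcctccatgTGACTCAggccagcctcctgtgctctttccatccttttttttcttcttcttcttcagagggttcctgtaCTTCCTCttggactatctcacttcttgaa
P2rx4: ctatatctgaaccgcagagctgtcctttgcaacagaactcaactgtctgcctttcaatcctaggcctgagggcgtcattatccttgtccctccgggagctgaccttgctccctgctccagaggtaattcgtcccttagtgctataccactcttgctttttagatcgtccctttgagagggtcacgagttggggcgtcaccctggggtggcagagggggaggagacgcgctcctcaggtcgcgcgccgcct
These windows lie at chr3:105904171-105904420 and chr5:122707294-122707543 on the plus strand (GRCm38.p6). The Adora3 window, taken before the RefSeq start, lies inside the annotated span of the gene given above (105870858 to 105908926). It is therefore not upstream of that annotated start, whereas the P2rx4 window ends directly before its own. The Adora3 window holds TGANTCA once from -98 and the reverse complement of GAGGAAG from -29, and has 0 CpG, as do 7.87% of all windows. The P2rx4 window holds neither run and has 13 CpG, above the median of 6. A match of letters describes the window only.

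The other adenosine receptors gave no call. Adora1 (ENSMUSG00000042429, chromosome 1, 134199223 to 134235431, minus strand), a Gi-coupled receptor with high expression in neurons, had 111, 114, 113, 130.3 and 124 CPM in the cKO libraries, against 96.3 (WT15), 118 and 133 CPM (WT17) in WT. Its log2 fold change stood at 0.03 with an SE of 0.10 and an interval from -0.17 to 0.23 (edgeR adjusted p = 0.927). With library totals it was at -0.06. Against the summed microglial markers Adora1 was at -0.26, beside -0.30 for the median gene. In WT the highest levels were those of WT13, WT16 and WT17 (128, 128 and 133 CPM), which also held the highest neuronal sums, and WT8, WT9 and WT15 were at 108, 102 and 96.3 CPM. What carried-over neuronal RNA adds to the Adora1 level was not tested. Adora1 shares 1162 exon bases with Mybph on the opposite strand, which was at 18.8 ± 0.967 CPM in cKO and 19.5 ± 1.89 CPM in WT.

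Adora2a (ENSMUSG00000020178, chromosome 10, 75316877 to 75334784, plus strand), the Gs-coupled receptor, had counts of 0, 20, 0, 0 and 92 in the cKO libraries, against 20, 0, 62, 34, 0 and 34 in the WT libraries. A count of 0 allows up to 3 counts, or at most 0.11 CPM in the shallowest library. This limit covers counting error only and takes each count as independent. Every nonzero count here was even, so the true limit may be higher. The 95% interval of the log2 fold change ran from -3.14 to 3.03, and without cKO7 alone the value was -2.15 (edgeR adjusted p = 0.606). No difference was detectable at this depth.

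The enzyme pair was unequal in level. Entpd1 (ENSMUSG00000048120, chromosome 19, 40612366 to 40741602, plus strand), which degrades ATP and ADP at the cell surface, had 595, 669.6, 670.3, 659 and 734 CPM in the cKO libraries, against 513 (WT13), 626 and 729 CPM (WT15) in WT, and the groups overlapped. A log2 fold change of 0.12, with an SE of 0.09 and an interval from -0.07 to 0.30, did not pass (edgeR adjusted p = 0.539). Relative to the summed microglial markers it was at -0.17, beside -0.30 for the median gene, and without WT13, WT16 and WT17 its log2 fold change was -0.02.

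Nt5e (ENSMUSG00000032420, chromosome 9, 88327197 to 88372092, plus strand), the enzyme that forms adenosine, had counts of 40, 10, 40, 22 and 0 in the cKO libraries, against 8, 46, 0, 20, 0 and 60 in the WT libraries. Summed over libraries this was 112 counts in cKO and 134 in WT, where Entpd1 had 105444 in cKO and 132127 in WT. The log2 fold change of Nt5e was 0.22 (SE 1.33, 95% interval -2.53 to 2.97), too wide to give a direction. Every nonzero count of Nt5e and Adora2a was even, as were 73.5 to 83.9% of counts from 1 to 200 in each library. The log2 ratio of Entpd1 to Nt5e averaged 10.84 ± 2.85 in cKO, against 11.60 ± 3.15 in WT (exact permutation test, two-sided, p = 0.716), and was highest in cKO7, WT13 and WT16, the libraries where Nt5e was at 0. Those values are set by the 0.5 added to each count: with 5 added the difference was -0.35, against -0.77 with 0.5.

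A wider list of 47 purinergic genes holds the remaining receptors, ectonucleotidases, nucleoside transporters, adenosine enzymes, ATP release genes and G proteins, and 36 of them were tested. A total of 2 were higher and 2 lower in cKO, 4 of 36 beside 4.29% of all genes, with a median log2 fold change of -0.08. By role, 1 of 5 genes listed with the other P2Y receptors (Gpr34) and 1 of 4 ATP release genes were higher. On that receptor list P2ry1, P2ry2, P2ry14 and Gpr17 did not pass. Among the rest, 1 of 6 adenosine enzymes and 1 of 4 ATP release genes were lower (edgeR). Gpr34, a lysophosphatidylserine receptor related to the P2Y12 group, had 695 ± 124 CPM in cKO and 477 ± 75.1 CPM in WT (a log2 fold change of 0.54 with SE 0.12, edgeR adjusted p = 0.0131). Without WT13, WT16 and WT17 Gpr34 was at 0.42 and no longer passed (edgeR adjusted p = 0.15). Lrrc8a, the obligatory subunit of the volume-regulated anion channel, was 1.34-fold higher, at 156 to 186 CPM in cKO and 113 to 131 CPM in WT (a log2 fold change of 0.42 with SE 0.08, edgeR adjusted p = 0.00285), and passed in each of the 18 other fits.

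Ampd3, an AMP deaminase, fell to 20.9 ± 4.02 CPM in cKO, against 31.8 ± 4.33 CPM in WT, with no overlap (a log2 fold change of -0.60 with SE 0.15, edgeR adjusted p = 0.0236). The call was lost without cKO4, cKO5, cKO6 or WT9, and when WT13, WT16 and WT17 were left out together (-0.63, edgeR adjusted p = 0.0512). Panx2, a pannexin, had 69.8 ± 8.09 CPM in cKO and 93.9 ± 15.4 CPM in WT (a log2 fold change of -0.43 with SE 0.11, edgeR adjusted p = 0.0337). Its call was lost in 8 of 11 fits that left out 1 library, held only without cKO7, WT8 or WT15, and without WT13, WT16 and WT17 it was at -0.25 (edgeR adjusted p = 0.351).

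The most abundant genes of the wider list that did not pass are mostly G proteins that these receptors signal through. The Gi subunits Gnai2 and Gnai3 were at log2 fold changes of 0.18 (SE 0.08) and 0.13 (SE 0.12), the Gq subunit Gnaq at 0.15 (SE 0.11) and the Gs gene Gnas at -0.01 (SE 0.08). Kcnk13, the potassium channel THIK-1 known for its part in microglial surveillance, had 106 ± 16.3 CPM in cKO and 98.3 ± 11.2 CPM in WT (0.11, SE 0.11). Slc29a3, a lysosomal nucleoside transporter, was at -0.01 (SE 0.08). P2ry4, P2ry10, P2rx1, P2rx5, Entpd8, Entpd4 and Slc28a2 had 0 counts in every library. The microglial marker Aif1 was at 0 too, so a row at 0 need not mean that a gene is not expressed.

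**Figure D4:**
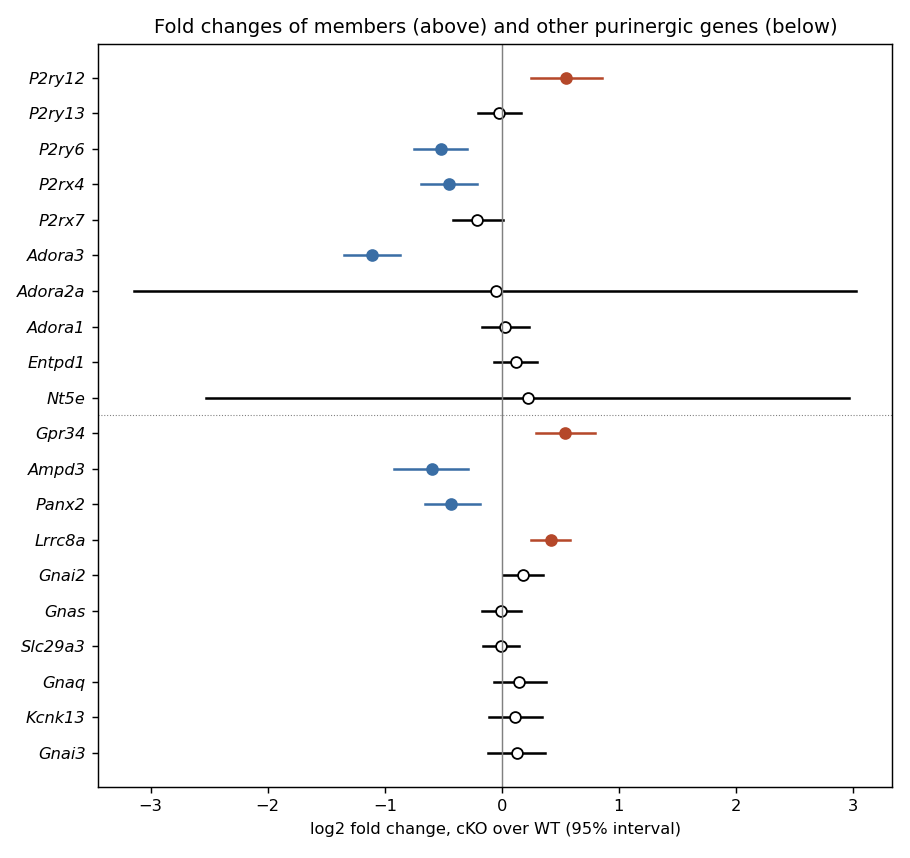
Log2 fold change, cKO over WT, with its 95% interval for the 10 genes (above the dotted line) and 10 named genes of the wider list (below); filled symbols passed the threshold. Adora3 stands lowest at -1.11, and the intervals of Adora2a and Nt5e run from -3.14 to 3.03 and from -2.53 to 2.97.

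Across libraries, with each genotype's mean subtracted, the genes most like P2ry12 in log2 CPM among 8979 named genes included Gpr34 and Gspt1, each with a Pearson r of 0.95 over 11 samples (0.92 to 0.97 when any 1 library was left out). For Adora3 they were Lasp1 (0.96), Dazap2 (0.95) and C3ar1 (0.94). For P2ry6 they were Tnfrsf1a, Bcl7b and Pex13, at 0.93 each, and for P2rx4 Ccdc102a (0.92), Rnf180 (0.91) and Smad3 (0.91). Without the 2 libraries farthest from the median, Rnf180 and Smad3 dropped to 0.76 and 0.78. These values are the highest of many and describe shared variation between libraries, which also share depth and carry-over, so no p-value is given.

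**Figure D5:**
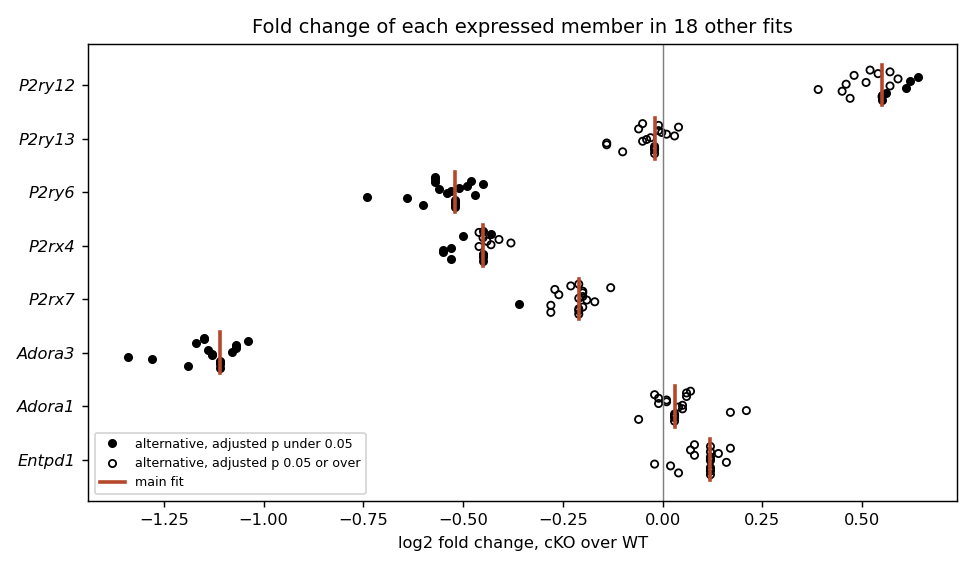
Log2 fold change of the 8 genes with counts in every library under 18 other fits; filled points passed an adjusted p of 0.05, open points did not, and the vertical bar is the main value. Adora3 and P2ry6 are filled throughout, P2ry12 is filled in 6 of 18 and P2rx4 in 11 of 18.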

How the data were processed

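RNA pulled down with tagged ribosomes was cleaned up by Direct-zol and sequenced from KAPA Stranded libraries, per the labels' protocols. Bcl2fastq 2.17, Trimmomatic, FastQC and mm10 appear in the submitters' processing notes. Which aligner, counter, strand setting and annotation the authors used is not given in the sources used here. Values in the deposited table are unnormalised read counts by Ensembl gene, and 37607 of 39017 identifiers matched a symbol. Since most low counts were even, halved counts were one alternative. Positions and exon lengths are those of GENCODE M21 (mm10), upstream windows those of RefSeq (GRCm38.p6).

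Genotypes were compared with edgeR 4.0.16 under R 4.3.3: filterByExpr (minimum count 10, minimum total 15), TMM factors, the robust quasi-likelihood F test with genotype as the only term, and Benjamini-Hochberg adjustment over 16025 genes. The procedure was checked on simulated data. An SE is the size of the log2 fold change divided by the square root of F. Log2 CPM used a prior count of 2. Ratios within a library, with 0.5 added to each count, were compared by two-sided exact permutation tests over all label assignments. The same test was run on ratios to the summed microglial markers, with nothing added and adjustment over 8 genes. DESeq2 1.42.0 was an alternative, beside other scalings, no filter, halved counts, a covariate of neural markers and fits without single libraries or without WT13, WT16 and WT17. Named genes are Kdm6a, the 10 genes, wider-list genes past the threshold with the 6 most abundant others, the 3 genes most like each called gene, and neighbours; a few items that these rules name are not reported here. The genes, lists and alternatives were chosen with earlier results of these data known. No sample was dropped or imputed in the main fit.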

Additional observations from a re-analysis of the deposited data

Results flagged for a closer look

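Of 48 groups tested over the 10 genes, the named genes of the wider list and the 4 ratios, in 2 the most extreme library stood so far from the next one, as a share of the group's range, that it passed Dixon's 95% critical value. Chance flags about 1 in 20 groups, or 2.4 of 48. Lrrc8a was high in cKO6, at 7.54 log2 CPM beside 7.29 to 7.31 in the other cKO libraries (gap ratio 0.907). Gnai3 was low in WT13, at 5.82 log2 CPM beside 6.33 to 6.61 in the other WT libraries (gap ratio 0.645). None of the 10 purine genes was flagged in either group.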

How the results depend on the processing

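No paired analysis was possible because the replicate numbers of the labels are not shared between the genotypes. Adora3 and P2ry6 kept direction and call in all 18 alternatives. P2ry12 lost its call with library totals (0.47, edgeR adjusted p = 0.108), without the filter (0.55, 0.108) and with the neural marker covariate (0.45, 0.316), so the count of the 10 genes higher in cKO was 0 in these and without WT13, WT16 and WT17. In each of these edgeR fits 1 was higher at an unadjusted p under 0.05, and DESeq2 called 1. Without single libraries that count ran from 0 to 1, and the count lower from 2 to 3.

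Over all genes the main split of 298 higher and 389 lower was 479 and 683 with DESeq2, 203 and 601 with library totals, and 164 and 363 without WT13, WT16 and WT17. Without single libraries the counts ran from 170 to 388 higher and from 264 to 557 lower. For the wider list both counts fell to 1 with the covariate, and without the 3 WT libraries to 1 higher and 0 lower (edgeR; 4 lower at an unadjusted p under 0.05; DESeq2 on all samples called 3). Without single libraries 0 to 3 were lower.

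Values near 0 changed sign. Adora1 was at -0.06 with library totals and -0.02 to 0.07 without single libraries. With the covariate it was at 0.17 and without the 3 WT libraries at 0.21 (edgeR adjusted p = 0.412 and 0.341). Entpd1 was at -0.02 without the 3 WT libraries. Relative to microglial markers, a scale on which the median gene stood at -0.30, Adora1 was at -0.26 and Entpd1 at -0.17, both above that shift. Both overlapped between the groups there. Against no difference Entpd1 passed as lower (exact permutation test, adjusted p = 0.0202) and Adora1 did not (0.143). That test takes no account of the shift of the median gene. Adora2a was at 0.32 with the covariate, 0.26 without the 3 WT libraries and -2.15 to 0.32 without single libraries, and had no value with halved counts, where it did not pass the filter. Nt5e ran from -0.13 to 0.80, P2ry13 from -0.06 to 0.04, Gnas from -0.04 to 0.03 and Slc29a3 from -0.04 to 0.04 without single libraries. The ratio of P2ry12 to P2ry13 was 0.53 (adjusted exact permutation p = 0.179) and that of P2ry6 to P2ry12 -1.13 (0.0714, at full separation) without the 3 WT libraries, where 5 libraries stand against 3. Without single libraries they ran from 0.48 to 0.67 and from -1.13 to -0.99, P2rx4 over P2rx7 from -0.38 to -0.19, and Entpd1 over Nt5e from -1.97 to 0.0, with 0.66 without the 3 WT libraries. Beyond these constructions the cause was not tested.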
